A study of Mus musculus with 27 samples.

Results

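Zone 2 of the maternal mouse liver was compared between day 16 post coitum (dpc16, late gestation) and day 8 post coitum (dpc8, mid gestation), over the genes whose FPKM reached 1 or more in no fewer than 3 of the 6 libraries. FPKM is the number of sequenced fragments of a gene, scaled to the length of its transcripts and to the number of mapped fragments of the library. In all, 11348 of the 21823 genes in the table met this rule, and the 6 libraries are part of a series of 27. Both groups were pregnant wild-type (WT) females, C57BL/6 in the labels and C57BL/6N in the study's methods, for which the labels name no transgene or agent and no age. Each group had 3 libraries, prepared from liver areas that were cut from frozen sections with a laser under the microscope. Zone 2 is the parenchyma (PA) between the layers of hepatocytes around the portal vein (PV, zone 1) and around the central vein (CV, zone 3). The labels do not say whether the 3 libraries of a group came from separate mice, so the p-values below measure only the spread between these libraries. The cut areas hold every cell of the parenchyma, and fewer cells of a type cannot be told apart from less RNA per cell. At the edge of the rule, 581 genes reached an FPKM of 1 in exactly 3 of the 6 libraries and were kept, while 727 reached it in exactly 2 and were left out. The 3 values belonged to the 3 dpc16 libraries in 26 of the 581 genes and to the 3 dpc8 libraries in 42. Of the 581, 12 were called higher and 3 lower, and each of these 15 passed the rule only through the stage in which it was high, so that its stages could not overlap. The 4 of them named below are Dnah11, Vwf, Ggt6 and Serpinb1a.

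The liver secretes most proteins of the blood plasma, breaks down hormones and foreign compounds, makes bile acids, and supplies glucose and lipids. Hepatocytes are graded along the axis from the portal to the central vein, and those of zone 2 lie between both extremes. During gestation the maternal liver is exposed to placental lactogens and prolactin, which act through the prolactin receptor, and to rising steroid hormones. Growth hormone acts through a related receptor and is known to set the sex-dependent and strain-dependent levels of many hepatic cytochrome P450 genes, enzymes that oxidise steroids, fatty acids and drugs.

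Hepatocyte RNA dominated all 6 libraries. Alb, which encodes albumin, took 6.26% to 7.61% of the FPKM sum at dpc8 and 21.0%, 17.9% and 7.98% in dpc16 libraries 1, 2 and 3. The periportal gene Cyp2f2 and the pericentral gene Cyp2e1 lay between the levels of zones 1 and 3 at each stage, with group means for Cyp2f2 of 1014, 444 and 16.1 FPKM in zones 1, 2 and 3 at dpc8 and 940, 188 and 2.01 FPKM at dpc16. The pericentral gene Glul did so at dpc8 (44.0, 82.7 and 2454 FPKM in zones 1, 2 and 3) but not at dpc16 (128, 125 and 2180 FPKM). The FPKM sum was 510108 to 650820 at dpc8 and 523854 to 968379 at dpc16, and the depth estimated from the steps between low values was 11.5 to 33.5 M reads, M being the prefix mega. A pair of libraries stood apart. In dpc8 library 2 and dpc16 library 3, genes of the Y chromosome summed to 16.1 and 23.2 FPKM although all mice are labelled female, against 0 to 0.802 FPKM in the other 4 libraries. The same libraries had the highest mean log2(FPKM + 1) over 15 genes of connective tissue and smooth muscle, 4.75 and 5.37, against 0.881 to 3.20 in the others, and the lowest mean over 10 hepatocyte genes, 10.2 and 9.81 against 10.9 to 11.9. The smooth muscle actin gene Acta2 was at 1857 and 1582 FPKM in them and at 0.0331 to 71.0 FPKM in the others. Their part in the results was not tested beyond the values without them. Of the called genes named below, Cth, Scd1, Serpinb1a, Slc1a2, Gstt1, Ugt1a6b, Etnppl and Ctsc were not called without both of them (adjusted p = 0.0574 to 0.178). Correlations of log2 values were 0.861 to 0.939 among the dpc8 libraries, 0.765 to 0.964 among the dpc16 libraries and 0.741 to 0.928 between the groups.

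Between dpc8 and dpc16, 95 genes rose and 107 fell in zone 2, which is 0.837% and 0.943% of the genes tested (limma, Benjamini-Hochberg adjusted p under 0.05). The genes that rose most encode the corticosteroid carrier of the plasma, receptors of growth hormone and related cytokines, and secreted plasma proteins. The genes that fell most encode the efflux pump Abcc3, complement component C9, P450 enzymes of the Cyp2c and Cyp2b groups, and hepatic lipase. Called genes rose by a median log2 fold change of 1.71, from 0.71 to 5.70, and fell by a median of 1.77, from 0.73 to 4.08. Changes over 2 log2 units were seen in 35 genes that rose and 34 that fell. For 201 of the 202 called genes, the values of the 3 libraries of each stage did not overlap, Apoa1 being the exception. Over all genes tested, 7.24% lay higher and 7.14% lower at dpc16 without overlap (14.4% in all), and the median log2 fold change was 0.01. Fold changes were positive in 5799 of these genes and negative in 5549. Called members of the lists below are to be read against the 0.837% and 0.943% of all genes. The counts of called genes rest on a spread shared by all 27 libraries. With only the 6 libraries in the fit, limma called 0 genes (smallest adjusted p = 0.0578, with 935 genes at an unadjusted p under 0.05 against 1483 in the fit of 27). Without dpc8 library 2 and dpc16 library 3, the fit called 127 genes higher and 77 lower (1.12% and 0.679% of the genes tested), of which 143 were among the 202, and all 202 kept their direction.

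**Figure D1:**
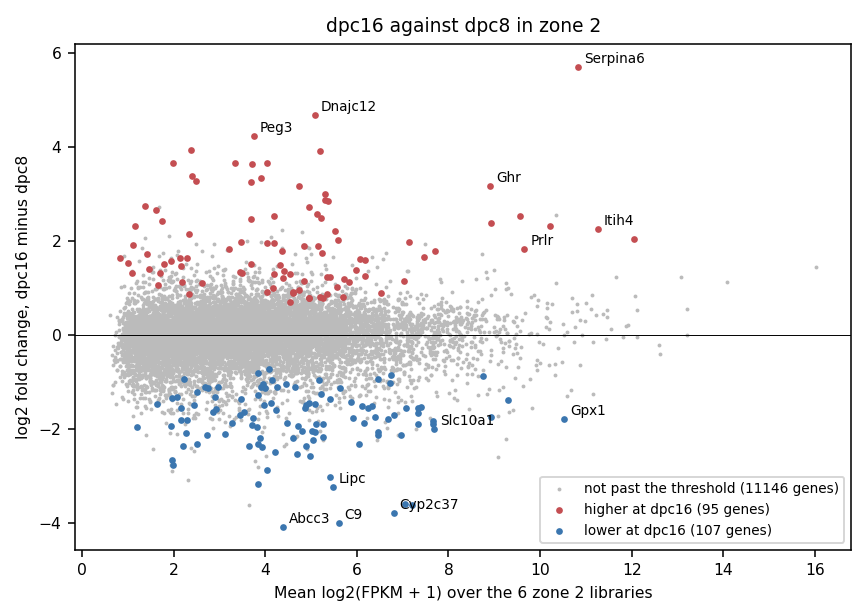
Log2 fold change (dpc16 minus dpc8, vertical axis) of the 11348 genes tested in zone 2 against their mean log2(FPKM + 1) over the 6 libraries (horizontal axis). Red points are the 95 genes called higher and blue points the 107 called lower at dpc16; both sets span low and high levels, and Serpina6 lies highest at 5.70.

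Serpina6 (ENSMUSG00000060807.7; chromosome 12, 103646630 to 103657212, mm10) encodes corticosteroid-binding globulin, the plasma carrier of glucocorticoids and progesterone. It was at 402, 156 and 256 FPKM in the dpc8 libraries and at 18980, 16740 and 7090 FPKM in the dpc16 libraries. All 3 late values lay far above all 3 earlier ones, and the change was the largest rise of the comparison, with a log2 fold change of 5.70 ± 0.49 (SE, adjusted p = 4.70e-07). In zone 2 of NP (non-pregnant) mice its level was 295 ± 202 FPKM (SD, n = 3), close to that at dpc8. By dpc16, Serpina6 had reached FPKM values of the order of the major plasma protein genes: Trf, which encodes transferrin, was at 36060, 35610 and 12730 FPKM in the same libraries.

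Dnajc12, a co-chaperone of the aromatic amino acid hydroxylases, went from 3.63, 7.202 and 7.04 FPKM to 240, 339 and 61.4 FPKM (4.68 ± 0.56, adjusted p = 3.31e-05). The paternally expressed zinc finger gene Peg3 was nearly constant at dpc8, with 2.14, 2.19 and 1.98 FPKM, and reached 34.0, 63.2 and 87.2 FPKM at dpc16 (4.23 ± 0.55, adjusted p = 9.99e-05). Peg3 is the case among these in which dpc16 library 3 held the highest and not the lowest of the late values.

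Further genes with the largest rises are of mixed kinds, and most started from a very low level. Dnah11, an axonemal dynein heavy chain, was at 0.113, 0.133 and 0.0975 FPKM at dpc8 and at 27.5, 18.1 and 4.16 FPKM at dpc16. Gpx3, the glutathione peroxidase of the plasma, was at 2.98, 2.28 and 0.809 and then at 47.7, 31.8 and 27.7 FPKM. Crybb3, a beta crystallin, rose from 0.963, 1.08 and 0.402 to 22.9, 25.2 and 7.26 FPKM. All 3 genes were low at dpc8, with Gpx3 the highest of them, and Dnah11 passed the rule of FPKM only through its dpc16 values, which fixed that its stages were apart. Nedd9, a scaffold protein of focal adhesions, rose from 2.21, 7.82 and 2.68 to 84.6, 65.1 and 17.9 FPKM. The sulfotransferase gene Sult3a2 and the kallikrein-family gene Klk1b4, both members of families of close copies whose reads can be split between genes, rose by 3.64 ± 0.57 and 3.63 ± 0.37 log2 units. Vwf, the von Willebrand factor made by endothelium and platelets, was at 0.445, 0.0303 and 0.581 FPKM and then at 28.4, 62.7 and 3.35 FPKM, and Dpf1, a subunit of a chromatin remodelling complex of neurons, at 0, 2.35 and 0.325 FPKM and then at 16.3, 18.7 and 13.6 FPKM. Vwf, too, was under an FPKM of 1 in all of dpc8 and was tested only because of its dpc16 values. The last 2 calls were the weakest of the set. The Vwf call was lost without dpc8 library 1 or 3 (adjusted p = 0.0529 and 0.0596) or without dpc16 library 1 or 2 (0.0662 and 0.103), and the Dpf1 call without dpc8 library 1 or 3 or dpc16 library 2 (0.0883, 0.0790 and 0.0575).

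**Figure D2:**
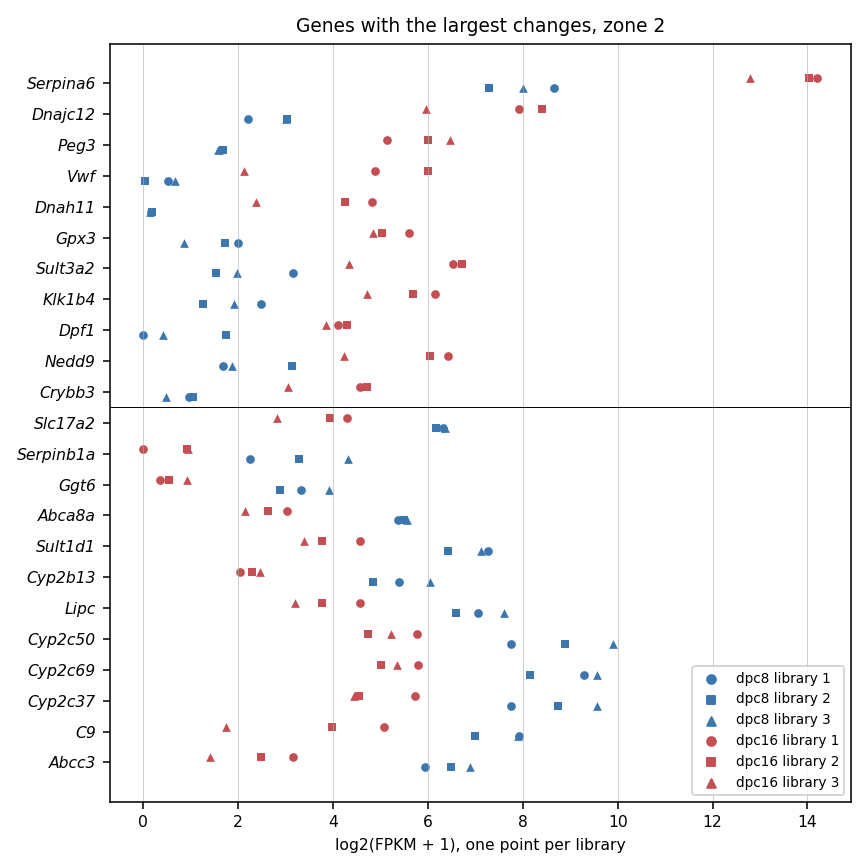
Level of 11 of the 12 genes with the largest rises (above the line) and of the 12 with the largest falls (below) as log2(FPKM + 1), one point per library, blue for dpc8 and red for dpc16 (circles, squares and triangles for libraries 1, 2 and 3). The genes were chosen among those whose stages did not overlap, which fixes that red and blue points are apart. Among the genes that rose, dpc16 library 3 (red triangle) was the lowest late value except for Peg3.

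The 12 largest falls were less mixed. Abcc3, C9, Lipc, Abca8a, Sult1d1 and 4 P450 genes (Cyp2c37, Cyp2c69, Cyp2c50 and Cyp2b13) are described with their groups below. The other 3 encode the gamma-glutamyltransferase family member Ggt6, the protease inhibitor Serpinb1a and the organic anion carrier Slc17a2, which fell by 2.76, 2.65 and 2.59 log2 units. Ggt6 and Serpinb1a were under an FPKM of 1 in all of dpc16 and passed the rule only through their dpc8 values. The Serpinb1a call was lost without dpc8 library 3 (adjusted p = 0.183) and without dpc16 library 1 or 2 (0.0926 and 0.0527).

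The receptors through which growth hormone, prolactin and leukaemia inhibitory factor act rose together with these genes. Ghr, the growth hormone receptor, was at 199, 117 and 175 FPKM at dpc8 and at 2316, 1761 and 730 FPKM at dpc16, a log2 fold change of 3.16 ± 0.33 (adjusted p = 5.51e-06). Prlr, the prolactin receptor, was at 583, 283 and 476 FPKM and then at 2482, 2041 and 697 FPKM (1.83 ± 0.38, adjusted p = 0.0109). Lifr, the receptor of leukaemia inhibitory factor, was singled out after its values were seen, and went from 726, 155 and 274 FPKM to 2719, 2349 and 942 FPKM (2.53 ± 0.49, adjusted p = 0.00759). The groups did not overlap for any of the 3 receptors, but the gap was narrow for Prlr and Lifr. The Prlr call was lost without dpc8 library 2 (adjusted p = 0.0549) and without dpc16 library 1 or 2 (0.0702 and 0.0668), the Lifr call without dpc8 library 3 or dpc16 library 2 (0.0532 and 0.0503), and the Ghr call in none of the 6 fits that left out 1 library. All 3 genes lie on chromosome 15, at 3317760 to 3583492 (Ghr), 7090614 to 7197489 (Lifr) and 10177238 to 10349180 (Prlr).

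Of the 19 tested genes of the prolactin, growth hormone and IGF axis, Ghr and Prlr were called higher and 0 lower, and the median log2 fold change was 0.14. Igf1, the main secreted target of growth hormone in the liver, was at 592, 246 and 440 FPKM at dpc8 and 515, 386 and 111 FPKM at dpc16 (-0.51 ± 0.45, adjusted p = 0.714). The STAT5 target genes Socs2 and Cish had log2 fold changes of 0.16 and -0.20 (adjusted p = 0.931 and 0.960), and Igfbp4, a carrier of IGF, one of 0.80 (adjusted p = 0.389). Igfbp4 was called higher without dpc16 library 3 (adjusted p = 0.0342), and Igfbp4 and Igfbp2 both with array weights, which count less reliable libraries for less, and without the libraries of the series that held Y-linked FPKM. For all of these the values of both stages overlapped, and the tests do not show that they stayed the same.

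Chaperones and translocation factors of the endoplasmic reticulum were higher at dpc16 as a list. Proteins for secretion fold in this compartment, and its chaperones are induced by the unfolded protein response through the transcription factors ATF6 and XBP1. Of the 28 tested genes of the list of unfolded protein response and secretion, 27 had a positive log2 fold change, 3 were called higher (Creld2, Manf and Dnajb11), 0 were called lower, and the median was 0.85. In 13 of the 28, all 3 dpc16 values lay above all 3 dpc8 values, against 7.24% of all genes tested. The mean log2(FPKM + 1) over the list was 5.47, 5.37 and 5.44 in the dpc8 libraries and 6.41, 6.59 and 5.92 in the dpc16 libraries. Dpc16 library 3 was the lowest of its group but still above all of dpc8.

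Some promoters of this list carry a known sequence element, which is why 2 of them are printed here. The endoplasmic reticulum stress response element (ERSE), the letters CCAAT, then 9 bases of any kind, then CCACG, is the binding motif of ATF6 with the factor NF-Y. It was searched on both strands in the 250 bases before the start of each gene in the RefSeq promoter set (GRCm38.p6, the same build as mm10). It was present in 37 of all 32851 promoters, or 0.113%. Of the 28 tested genes of the list, 24 were in this set, and 8 of them held the motif: Calr, Canx, Creld2, Dnajc3, Hsp90b1, Hspa5, Pdia6 and Syvn1. The list was drawn up from known genes of this response, so its share follows from the choice of genes and is no result of these data. The start is that of RefSeq, and GENCODE vM21 places some starts further upstream: in 7 of the 8 genes a motif lay wholly before the GENCODE start as well, while that of Hspa5 lay after it, within the annotated transcript, so that its stretch is not shown. Among the 95 genes called higher, 70 were in the set, and Creld2 was the gene of these that held it, while 0 of 89 matched genes called lower did. The sequences below run 5′ to 3′ on the strand of the gene and end at the base before the RefSeq start (Creld2) or the GENCODE start (Hsp90b1), with the motif in capitals. In Creld2 (chr15:88819396-88819645, plus strand) the motif is on the opposite strand and so reads as its reverse complement. Hsp90b1 (chr10:86705510-86705694, minus strand) has 1 match on each strand.
Creld2: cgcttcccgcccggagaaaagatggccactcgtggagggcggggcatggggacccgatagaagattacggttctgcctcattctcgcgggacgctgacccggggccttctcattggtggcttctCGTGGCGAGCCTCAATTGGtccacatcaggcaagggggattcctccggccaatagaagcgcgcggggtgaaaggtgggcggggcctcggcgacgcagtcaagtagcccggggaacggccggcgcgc
Hsp90b1: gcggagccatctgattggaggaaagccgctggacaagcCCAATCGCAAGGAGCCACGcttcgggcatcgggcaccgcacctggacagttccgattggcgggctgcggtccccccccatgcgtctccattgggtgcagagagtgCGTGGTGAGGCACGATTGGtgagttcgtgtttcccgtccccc
A match describes these letters and does not show that a factor was bound.

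The levels of the genes with the motif differed in how clearly they separated the stages. Creld2, a chaperone secreted during endoplasmic reticulum stress, was at 15.7, 9.45 and 16.2 FPKM at dpc8 and at 121, 158 and 30.7 FPKM at dpc16 (log2 fold change 2.56 ± 0.63, adjusted p = 0.0353). Hspa5, which encodes the main luminal chaperone BiP, was at 197, 217 and 292 FPKM and then at 1022, 1286 and 345 FPKM (1.73 ± 0.50, adjusted p = 0.0804). Hsp90b1, the luminal member of the HSP90 family, was at 451, 315 and 509 FPKM and then at 1056, 1181 and 561 FPKM (1.09 ± 0.39, adjusted p = 0.187). In all 3 genes the stages did not overlap, but dpc16 library 3 lay close to the dpc8 range, and Hspa5 and Hsp90b1 did not pass the test. With stage and replicate number as a random block Hspa5 passed (limma adjusted p = 0.0471), and with the number as a term it did not (0.0786).

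Among the other members, Manf, a secreted chaperone cofactor, rose from 50.7, 69.4 and 96.7 to 297, 436 and 166 FPKM (1.98 ± 0.50, adjusted p = 0.0402). Dnajb11, a J-domain partner of BiP, rose from 38.2, 31.4 and 45.5 to 124, 133 and 59.9 FPKM (1.37 ± 0.33, adjusted p = 0.0330). Sdf2l1 and Hyou1 had log2 fold changes of 2.18 and 1.60 without passing the test (adjusted p = 0.0923 and 0.0559), and Hyou1 passed with the replicate number as a term or as a random block (0.0365 and 0.0303). The calls of Creld2, Manf and Dnajb11 were each lost in 5 of the 6 fits without 1 library, with adjusted p-values up to 0.1783, 0.1859 and 0.1603, and kept without dpc16 library 3. After scaling every library to the same median, 0 members were called and the median of the list was 0.82. Without both libraries that stood apart, 7 members were called higher: Creld2, Manf, Dnajb11, Hspa5, Sel1l, Syvn1 and Sec61a1. The transcription factors of the response were less separated, with 0.39 for Xbp1 and 0.46 for Atf4 (adjusted p = 0.757 and 0.381) and overlapping stages in both. Cytosolic ribosomal protein genes, which serve all translation, had a median log2 fold change of 0.30 over 79 genes, with 77 positive and 0 called. Their mean log2(FPKM + 1) was highest in dpc16 library 3.

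**Figure D3:**
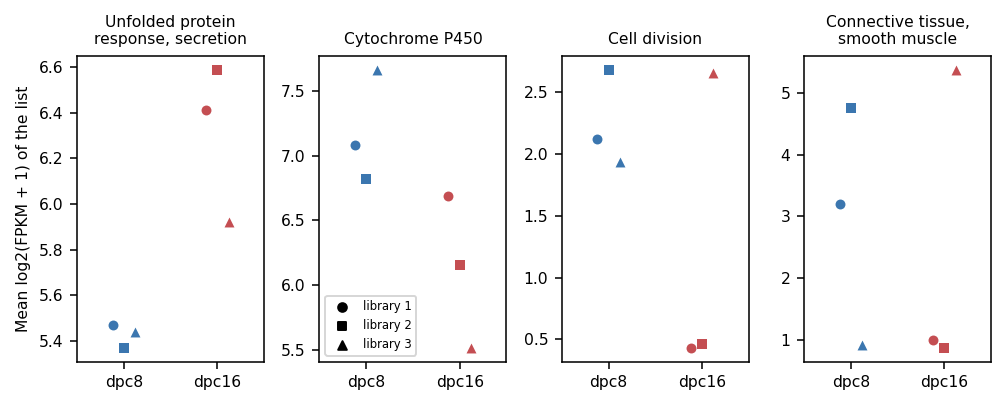
Mean log2(FPKM + 1) over 4 gene lists in each zone 2 library, blue for dpc8 and red for dpc16, with each panel on its own vertical scale. The list of unfolded protein response and secretion separates the stages upwards and the P450 list downwards, while for cell division and for connective tissue dpc16 library 3 (red triangle) lies with or above the dpc8 libraries.

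Of 22 tested plasma carriers and hepatokines, Serpina6 and Apoa1 rose and Lect2 fell, and the median log2 fold change was 0.24 (-0.08 under quantile normalization). The count was 7 higher and 1 lower without dpc16 library 3, and it changed under further settings given below for most lists. Of 25 acute phase and metal-binding genes, Cp and Itih4 rose, 0 fell, and the median was 0.31. Cp, the copper-binding ferroxidase ceruloplasmin, was at 545, 409 and 679 FPKM at dpc8 and at 4135, 3802 and 1169 FPKM at dpc16 (2.31 ± 0.41, adjusted p = 0.00324). Itih4, an inter-alpha-trypsin inhibitor heavy chain, was at 1693, 685 and 1246 FPKM and then at 7538, 9000 and 2302 FPKM (2.25 ± 0.41, adjusted p = 0.00381). Both separated the stages fully and kept their calls in all 6 fits without 1 library. Apoa1, the main protein of HDL, was at 1684, 1734 and 3107 FPKM and then at 14180, 14480 and 3106 FPKM, so that dpc16 library 3 fell within the dpc8 range. The Apoa1 rise (2.04 ± 0.51, adjusted p = 0.0397) was lost in each fit without 1 library except the one without dpc16 library 3, with adjusted p-values up to 0.187. Apoc2, the activator of lipoprotein lipase, which belongs to none of the lists and was singled out after its values were seen, went from 220, 173 and 254 FPKM to 1762, 1560 and 506 FPKM (2.39 ± 0.37, adjusted p = 0.000710).

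Lect2, a secreted hepatokine, went the other way, from 73.1, 45.9 and 103 FPKM to 13.71, 12.04 and 16.92 FPKM (-2.24 ± 0.37, adjusted p = 0.00126). C9, the pore-forming component of the complement attack complex, fell from 243, 127 and 237 FPKM to 32.7, 14.9 and 2.33 FPKM (-4.01 ± 0.64, adjusted p = 0.00104). The stages did not overlap for either gene, and both calls were kept in all 6 fits without 1 library. C9 was the 1 called gene among 19 tested complement genes, whose median was -0.36. C3, the central complement component, was at 5848, 3149 and 5084 FPKM and then at 7170, 7068 and 1651 FPKM (-0.05 ± 0.43, adjusted p = 0.983). Of 18 genes of coagulation and fibrinolysis 0 were called, with a median of 0.30 that ranged from -0.02 without dpc16 library 1 to 0.81 without dpc16 library 3. In the last fit 5 of them were called higher, and so were 7 with array weights, 8 without the libraries of the series that held Y-linked FPKM, 2 with the connective tissue mean as a covariate and 1 (F5) without both libraries that stood apart. Alb itself was at 42400, 31930 and 49530 FPKM at dpc8 and at 203100, 154700 and 41790 FPKM at dpc16 (1.43 ± 0.49, adjusted p = 0.163), and was called higher without both libraries that stood apart, together with Trf and Ahsg. Under quantile normalization Alb and Trf, which hold the top ranks in every library, had a fold change of 0. Of 12 tested genes of iron handling, Tfrc, the transferrin receptor, rose from 9.06, 13 and 8.78 FPKM to 39.2, 43.8 and 29.9 FPKM (1.78 ± 0.36, adjusted p = 0.00948), a call lost without dpc8 library 1 or 3 or dpc16 library 2 (adjusted p = 0.0533, 0.0686 and 0.0567).

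Among enzymes of drug and steroid oxidation, members of the Cyp2c and Cyp2b groups fell. Of 36 tested P450 genes of xenobiotic and steroid metabolism, 5 fell (Cyp2c37, Cyp2c69, Cyp2c50, Cyp2b13 and Cyp2c67), 0 rose, and the median log2 fold change was -0.77. In 15 of the 36 all dpc16 values lay below all dpc8 values, against 7.14% of all genes tested, and the mean log2(FPKM + 1) of the list was 6.82 to 7.66 at dpc8 and 5.52 to 6.69 at dpc16, without overlap. Cyp2c37, an arachidonic acid and drug oxidase, was at 215, 428 and 762 FPKM at dpc8 and at 52.4, 22.5 and 20.6 FPKM at dpc16 (-3.78 ± 0.60, adjusted p = 0.000787). Cyp2c50 was at 214, 475 and 953 FPKM and then at 53.7, 25.8 and 36.2 FPKM (-3.60 ± 0.71, adjusted p = 0.00855). Cyp2c69 was at 626, 282 and 759 FPKM and then at 54.7, 31.3 and 39.6 FPKM (-3.62 ± 0.33, adjusted p = 5.68e-07). The order of the dpc8 libraries was the same for Cyp2c37 and Cyp2c50 and another for Cyp2c69, and every dpc16 value lay below every dpc8 value. The Cyp2c50 call was lost without dpc8 library 3 or dpc16 library 2 (adjusted p = 0.0798 and 0.0527).

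Cyp2c37 and Cyp2c50 are close copies in a cluster on chromosome 19, and their promoters are shown because both genes are among the largest falls. Over the 250 bases before their starts (GRCm38.p6, chr19:39992174-39992423 and chr19:40089429-40089678, both on the plus strand) they were identical at 84.3% of 255 aligned positions. The promoter of Cyp2c69, on the minus strand of the same cluster, was identical to them at 51.0% and 52.8% of the aligned positions. The longest run shared by Cyp2c37 and Cyp2c50, of 44 bases, is in capitals.
Cyp2c37: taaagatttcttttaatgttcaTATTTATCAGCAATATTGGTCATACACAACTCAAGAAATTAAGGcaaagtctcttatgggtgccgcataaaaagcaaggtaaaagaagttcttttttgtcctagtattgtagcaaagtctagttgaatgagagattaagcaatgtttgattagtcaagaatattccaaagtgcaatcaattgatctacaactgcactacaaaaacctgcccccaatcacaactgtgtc
Cyp2c50: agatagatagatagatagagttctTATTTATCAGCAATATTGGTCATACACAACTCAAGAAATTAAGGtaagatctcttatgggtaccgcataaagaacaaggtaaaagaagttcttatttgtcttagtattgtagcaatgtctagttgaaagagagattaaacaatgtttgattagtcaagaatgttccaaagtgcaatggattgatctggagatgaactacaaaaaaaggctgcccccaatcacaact
Their longest protein-coding transcripts in GENCODE vM21 were identical at 95.2% of 1824 aligned positions, with a shared run of 154 bases, against 67.3% for each with that of Cyp2c69. Reads from shared stretches can be assigned to either gene, so that the single values of Cyp2c37 and Cyp2c50 are uncertain.

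Other members of the list showed how uneven the fall was. Cyp2b13, of the Cyp2b group, fell from 40.7, 27.8 and 65.4 to 3.14, 3.88 and 4.48 FPKM (-3.17 ± 0.45, adjusted p = 0.000309). Cyp2c67 fell from 90.5, 46.3 and 90.0 to 32.19, 20.04 and 9.982 FPKM (-1.89 ± 0.37, adjusted p = 0.00727), a call lost without dpc8 library 1 or 3 (0.0516 and 0.0625). The pericentral enzymes of the list were lower without passing the test: Cyp2e1, which oxidises ethanol, was at 3549, 1925 and 2177 FPKM and then at 1564, 1190 and 687 FPKM (-1.18 ± 0.41, adjusted p = 0.177). Cyp1a2, which oxidises caffeine, was at 198, 305 and 507 FPKM and then at 104, 61.3 and 70.7 FPKM (-2.01 ± 0.53, adjusted p = 0.0524), and passed with the replicate number as a term (0.0217), as a random block (0.0384) and under quantile normalization (0.0405). Neither overlapped between the stages. Cyp4a10, a fatty acid hydroxylase under PPARα, was at 621, 667 and 591 FPKM and then at 2942, 2269 and 78.0 FPKM (0.37 ± 1.12, adjusted p = 0.945), with the late libraries on both sides of the earlier ones.

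Conjugation enzymes, which attach sulfate, glucuronic acid or glutathione to hormones and drugs, fell in part. Of 40 tested genes, 4 fell (Sult1d1, Ugt2b37, Gstt1 and Ugt1a6b), Sult3a2 rose, and the median log2 fold change was -0.85, with 34 negative. Without overlap, 17 of the 40 lay lower and 1 higher at dpc16, against 7.14% and 7.24% of all genes tested. Sult1d1, a sulfotransferase, was at 153, 84.4 and 137 FPKM at dpc8 and at 22.6, 12.7 and 9.45 FPKM at dpc16 (-3.03 ± 0.45, adjusted p = 0.000361). Sult3a2 was the opposite case within the same enzyme class, from 7.86, 1.90 and 2.95 FPKM to 91.0, 105 and 19.2 FPKM (adjusted p = 0.000778). Gstt1 and the glucuronosyltransferase genes Ugt2b37 and Ugt1a6b had log2 fold changes of -1.70, -1.93 and -1.504, but these 3 calls were lost in 4 or 5 of the 6 fits without 1 library, with adjusted p-values up to 0.250, 0.117 and 0.255. Gpx1, the cytosolic glutathione peroxidase, was singled out after its values were seen for its high level. It fell from 3190, 2218 and 2930 to 1103, 748 and 594 FPKM (-1.80 ± 0.32, adjusted p = 0.00281), while Gpx3, its secreted relative, rose.

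Genes of bile acid synthesis and transport fell in 4 of 21 tested cases, with 0 higher and a median of -0.91. In 9 of the 21 all dpc16 values lay below all dpc8 values, against 7.14% of all genes tested. Abcc3 (ENSMUSG00000020865.16; chromosome 11, 94343295 to 94392997) encodes the pump of the sinusoidal membrane that returns bile acids and glucuronides to the blood. It was at 60.1, 88.3 and 117 FPKM at dpc8 and at 7.92, 4.58 and 1.65 FPKM at dpc16, the largest fall of the comparison (-4.08 ± 0.52, adjusted p = 7.22e-05). Slc10a1, the sodium-dependent bile acid uptake carrier NTCP, fell from 380, 303 and 611 to 167, 115 and 56.1 FPKM (-1.9975 ± 0.404, adjusted p = 0.00948). Slco1b2, an uptake carrier of organic anions and unconjugated bile acids, fell from 472, 288 and 431 to 173, 110 and 58.9 FPKM (-1.89 ± 0.38, adjusted p = 0.00854). Thus 2 uptake carriers and 1 efflux pump of the blood side were all lower. Cyp27a1, the sterol 27-hydroxylase of the acidic pathway of bile acid synthesis, fell from 361, 196 and 324 to 116, 107 and 57.4 FPKM (-1.66 ± 0.35, adjusted p = 0.0137). Cyp7a1, the rate-limiting enzyme of the classic pathway, was at 130, 46.8 and 90.5 FPKM and then at 15.5, 16.6 and 17.8 FPKM (-2.24 ± 0.76, adjusted p = 0.161), without overlap and without passing the test. The Abcc3 call was kept in all 6 fits without 1 library, that of Slc10a1 was lost without dpc8 library 3 (adjusted p = 0.0877), that of Slco1b2 without dpc8 library 1 or 3 (0.0543 and 0.0596), and that of Cyp27a1 without dpc8 library 1 or 3 or dpc16 library 3 (0.0883, 0.0848 and 0.0547).

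In lipid metabolism, Scd1 and Lipc fell, and the means of the lists of synthesis and oxidation overlapped between the stages. Of 15 tested genes of fatty acid synthesis 12 had negative fold changes, with a median of -1.08. In 7 of the 15 all dpc16 values lay below all dpc8 values, against 7.14% of all genes tested. The mean log2(FPKM + 1) of the list was 6.44, 5.35 and 6.74 in the dpc8 libraries and 5.31, 5.05 and 5.39 in the dpc16 libraries. The overlap was that of dpc8 library 2 with dpc16 library 3. Scd1, the stearoyl-CoA desaturase, was the called one and went from 868, 587 and 1386 FPKM to 204, 477 and 190 FPKM (-1.75 ± 0.44, adjusted p = 0.0404). That call was lost without dpc8 library 1 or 3 or dpc16 library 1 or 3, with adjusted p-values up to 0.268. Elovl6, a fatty acid elongase, had the values 56.2, 15 and 66.9 and then 5.66, 2.84 and 10.3 FPKM, apart but not past the test (-2.58 ± 0.72, adjusted p = 0.0694), and Elovl6 and Me1 were called lower with the replicate number as a term (adjusted p = 0.00678 and 0.0210) or as a random block (0.0426 and 0.0471). They were also called lower without both libraries that stood apart, a fit in which the median of the list was -1.81. All 24 genes of cholesterol synthesis and uptake had negative fold changes, with a median of -0.87 and 0 called, and without dpc8 library 3 the median was -0.55 with 3 of the 24 positive. In 7 of the 24 all dpc16 values lay below all dpc8 values. Cyp51 and Nsdhl were called lower with the replicate number as a term (limma adjusted p = 0.0238 and 0.0122), but not as a random block (0.258 and 0.197). Lipc, the hepatic lipase, which belongs to none of the lists, fell from 132, 96.0 and 194 to 22.8, 12.6 and 8.23 FPKM (-3.24 ± 0.35, adjusted p = 9.61e-06), a call kept in all 6 fits without 1 library. For 22 genes of fatty acid oxidation and ketogenesis the median was 0.19, and 0.77 without both libraries that stood apart, with 0 called in both fits. The stages were without overlap in 0 of the 22. The mean log2(FPKM + 1) of this list was 6.78 to 7.10 at dpc8, and 8.26, 7.96 and 5.45 in dpc16 libraries 1, 2 and 3, so that the late libraries lay on both sides of the dpc8 range.

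**Figure D4:**
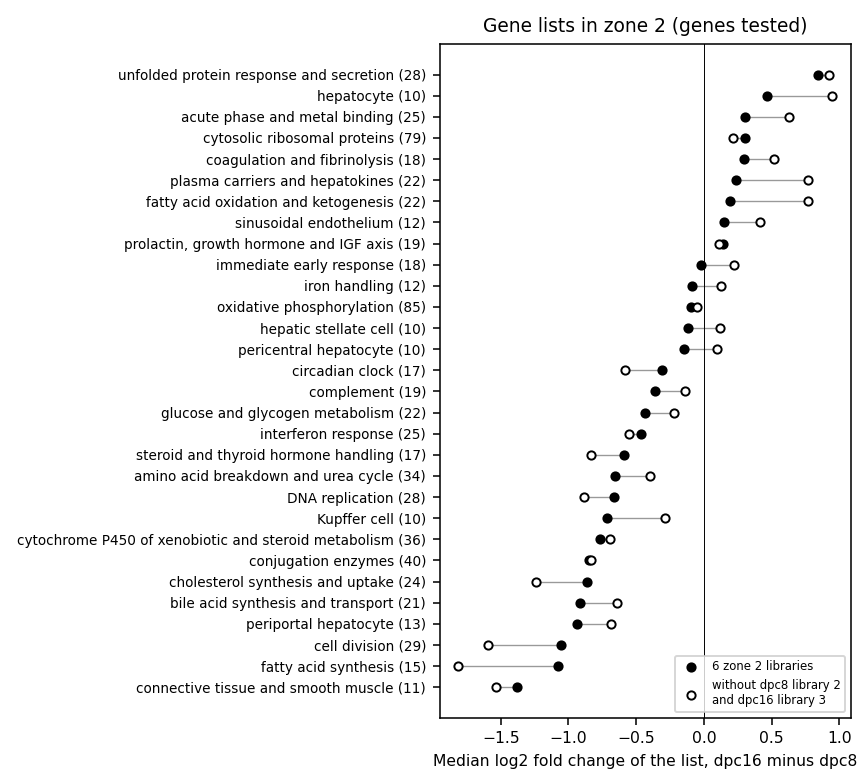
Median log2 fold change (dpc16 minus dpc8) of each gene list with at least 10 tested genes, whose number stands in brackets, from the fit of all libraries (filled) and from the fit without dpc8 library 2 and dpc16 library 3 (open). In the fit of all libraries, the list of unfolded protein response and secretion is highest at 0.85 and connective tissue is lowest at -1.38. The ranks differ in the other fit. Iron handling, stellate cell, pericentral and immediate early lists, all near 0, change sign between the fits.

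The medians of most lists moved with single libraries. Over the 6 fits without 1 library, the median of unfolded protein response and secretion stayed between 0.70 and 1.10, with 0 members called in 5 fits and 11 called higher without dpc16 library 3, a fit that called 1.56% of all genes higher and 0.705% lower. Lists that stayed negative were the P450 genes (-1.11 to -0.34), conjugation (-1.17 to -0.59), bile acids (-1.18 to -0.31), cell division (-1.79 to -0.70), DNA replication (-0.93 to -0.29), cholesterol (-1.15 to -0.55), fatty acid synthesis (-1.51 to -0.67), amino acid breakdown (-0.96 to -0.08), glucose and glycogen (-0.77 to -0.02), steroid and thyroid hormone handling (-0.93 to -0.44), the interferon response (-0.77 to -0.26) and Kupffer cells (-1.11 to -0.09). For the P450, conjugation, bile acid, amino acid, glucose, interferon and Kupffer cell lists the value nearest to 0 was that without dpc16 library 3, for DNA replication and cell division that without dpc16 library 2, and for cholesterol and fatty acid synthesis that without dpc8 library 3. The direction of other lists changed: acute phase (-0.15 to 1.02), plasma carriers (-0.13 to 0.90), complement (-0.47 to 0.09), fatty acid oxidation (-0.35 to 0.95), the prolactin and growth hormone axis (-0.30 to 0.39), iron handling (-0.24 to 0.31), oxidative phosphorylation (-0.26 to 0.05), connective tissue (-3.23 to 0.39), sinusoidal endothelium (-0.16 to 0.64), stellate cells (-0.32 to 0.14) and erythroid cells (-1.23 to 0.20). Ribosomal proteins ranged from 0.05 without dpc16 library 3 to 0.47. Without both libraries that stood apart, the medians of plasma carriers, acute phase and coagulation genes were 0.77, 0.63 and 0.52, and those of complement, glucose and glycogen, and amino acid breakdown were -0.14, -0.22 and -0.40. In the same fit the median was 0.60 for the genes the study names, -0.58 for the circadian clock, 0.23 for the immediate early response, -0.05 for oxidative phosphorylation, 0.13 for iron handling, 0.42 for sinusoidal endothelium, 0.12 for stellate cells and 0.06 for erythroid cells, and Sgk1 and Hsd17b6 of steroid and thyroid hormone handling were called higher.

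Other settings called more genes and so changed the counts of most lists. Array weights called 4.38% of all genes tested higher and 3.75% lower, the fit without the libraries of the series that held Y-linked FPKM 2.34% and 2.18%, and the connective tissue covariate 2.51% and 3.92%. In this order of settings, the unfolded protein response and secretion list had 16, 9 and 8 members called higher and 0 lower in each. Plasma carriers and hepatokines had 8, 11 and 6 higher against 1, 1 and 3 lower, with Alb, Trf, Ahsg and Apoa4 higher in all 3 settings. Amino acid breakdown had 2, 1 and 0 higher (Sdsl and Mat1a, then Mat1a) against 5, 6 and 14 lower. Glucose and glycogen genes had 1, 0 and 0 higher (H6pd) against 5, 1 and 3 lower, with Gbe1 lower in all 3. The P450 list had 1, 1 and 0 higher against 10, 6 and 12 lower, conjugation enzymes 1 higher in each against 13, 8 and 18 lower, and bile acid genes 0 higher against 8, 6 and 9 lower. Fatty acid synthesis had 7, 4 and 4 lower, cholesterol synthesis 3, 0 and 1 lower, and DNA replication 4, 3 and 0 lower, with 0 higher in these 3 lists, while fatty acid oxidation had 3, 3 and 0 higher and 0 lower. Acute phase genes had 4, 3 and 2 higher against 0, 0 and 2 lower, complement 1, 1 and 0 higher against 1, 1 and 4 lower, and the interferon response 0 higher against 4, 3 and 6 lower. The prolactin and growth hormone axis had 4, 4 and 2 higher and 0 lower, steroid and thyroid hormone handling 3, 3 and 0 higher against 1, 1 and 3 lower, the immediate early response 2, 1 and 1 higher and 0 lower, and iron handling 2 higher in each against 0, 0 and 1 lower. The circadian clock, the ribosomal proteins and the sinusoidal endothelium had 0 called in all 3 settings.

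Of 34 tested genes of amino acid breakdown and the urea cycle, Cth and Prodh fell, 0 rose, and the median was -0.65. Prodh, the proline dehydrogenase of mitochondria, went from 103, 35.4 and 78.0 FPKM to 14.37, 13.04 and 9.145 FPKM (-2.37 ± 0.42, adjusted p = 0.00311). Cth, cystathionine gamma-lyase of the transsulfuration pathway, went from 288, 198 and 309 FPKM to 101, 82.6 and 23.7 FPKM (-2.13 ± 0.48, adjusted p = 0.0200). The stages were apart in both genes, and the Cth call was lost without dpc8 library 1 or 3 or dpc16 library 3 (adjusted p = 0.0883, 0.111 and 0.0822). Etnppl and Ctsc, members of the periportal marker list, fell by 2.33 and 1.78 log2 units, with 5 and 4 of the 6 fits without 1 library losing the call (adjusted p up to 0.126 and 0.187). Of the 13 tested periportal markers 0 were called higher, and 4 had positive and 9 negative fold changes, with a median of -0.94. With array weights Cyp17a1, Hsd17b6 and Aldh1b1 were called higher and Etnppl, Ctsc and Gls2 lower. Slc1a2, a glutamate carrier of pericentral hepatocytes, rose from 22.0, 9.26 and 2.45 to 41.5, 40.1 and 25.5 FPKM (1.94 ± 0.48, adjusted p = 0.0351), a call lost in 4 of the 6 such fits (adjusted p up to 0.273). Of the 10 tested pericentral markers only Slc1a2 was called, and 4 had positive and 6 negative fold changes, with a median of -0.15. Of 22 genes of glucose and glycogen metabolism 0 were called, and the median was -0.43, while Gbe1, the glycogen branching enzyme, was called lower with the replicate number as a term (adjusted p = 0.0354). The gluconeogenic genes Pck1 and G6pc had overlapping stages (0.13 and -0.08, adjusted p = 0.981 and 0.984). Pygl, liver glycogen phosphorylase, was at 181, 122 and 295 FPKM and then at 101, 80.6 and 50.6 FPKM (-1.32 ± 0.40, adjusted p = 0.111, and called lower with array weights or the connective tissue covariate), and Gys2, liver glycogen synthase, at 153, 48.0 and 96.3 and then at 287, 256 and 61.6 FPKM (0.88 ± 0.57, adjusted p = 0.570).

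Of 25 tested interferon response genes, Gbp3 and Rtp4 fell, 0 rose, and the median was -0.47. The mean log2(FPKM + 1) of the list overlapped between the stages, at 3.05 to 3.79 at dpc8 and 2.45 to 3.40 at dpc16. Gbp3, a guanylate-binding protein, went from 10.6, 5.11 and 12.5 FPKM to 1.22, 1.81 and 0.988 FPKM (-2.09 ± 0.36, adjusted p = 0.00205), and Rtp4 from 17.7, 12.8 and 20.8 to 7.54, 7.50 and 3.49 FPKM (-1.37 ± 0.29, adjusted p = 0.0150). The 3 catalytic subunits that are exchanged to form the immunoproteasome, which cuts proteins for presentation on MHC class I, were singled out after their values were seen. Psmb8 was at 36.7, 16.9 and 34.4 FPKM and then at 10.8, 9.66 and 8.32 FPKM (-1.45 ± 0.32, adjusted p = 0.0196). Psmb9 was at 19.0, 10.4 and 26.7 FPKM and then at 2.44, 6.38 and 4.09 FPKM (-1.87 ± 0.46, adjusted p = 0.0375). Psmb10 was at 56.5, 32.9 and 67.1 FPKM and then at 7.54, 14.0 and 17.4 FPKM (-1.94 ± 0.39, adjusted p = 0.00864). In all 3 subunits dpc8 library 2 was the lowest of the earlier values and still above every late one. The calls of Psmb8, Psmb9 and Psmb10 were lost in 4, 5 and 3 of the 6 fits without 1 library (adjusted p up to 0.129, 0.233 and 0.0777), that of Rtp4 in 3 (up to 0.112), and that of Gbp3 in none. The 10 Kupffer cell markers tested, genes of the resident macrophages that share several of these pathways, all had negative fold changes with a median of -0.71 and 0 called. Their mean log2(FPKM + 1) was 4.43 to 4.91 at dpc8, 4.67 and 4.51 in dpc16 libraries 1 and 2, and 2.78 in dpc16 library 3, and without both libraries that stood apart their median was -0.29.

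The mean of the cell division list was lower in dpc16 libraries 1 and 2 than at dpc8, but not in dpc16 library 3. All 29 tested genes of the list had negative fold changes, with a median of -1.05 and 0 called. The mean log2(FPKM + 1) of the list was 2.12, 2.68 and 1.93 in the dpc8 libraries, 0.432 and 0.463 in dpc16 libraries 1 and 2, and 2.66 in dpc16 library 3. Mki67, the gene of the proliferation marker Ki67, was at 6.63, 5.53 and 5.09 FPKM and then at 2.036, 0.4744 and 4.002 FPKM (-1.25 ± 0.62, adjusted p = 0.401). Hmmr, a hyaluronan receptor that binds the mitotic spindle, was at 2.69, 3.91 and 2.26 FPKM and then at 0.115, 0.351 and 2.48 FPKM (-1.16 ± 0.49, adjusted p = 0.285). The values of Hmmr in dpc16 library 3 fell within the dpc8 range, and those of Mki67 below it. Without both libraries that stood apart the median of the list was -1.60 with 0 genes called. Without dpc16 library 3 alone it was -1.79 with 3 called lower, and 16 were called lower with array weights, 11 without the libraries of the series that held Y-linked FPKM and 3 with a connective tissue covariate. Without both libraries the DNA replication list went from -0.66 to -0.88. In dpc8 library 2 and dpc16 library 3, the highest means of the cell division list went with the highest connective tissue means, and the part of these cells in the list was not tested.

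Other cell types were also examined because cut areas differ in what they hold. Of 11 tested genes of connective tissue and smooth muscle 0 were called (median -1.38), and the same held for 12 of sinusoidal endothelium (median 0.15), 10 of hepatic stellate cells (median -0.12) and 5 of erythroid cells (median -0.74). Only 2 of 10 biliary, 1 of 8 neutrophil, and 0 of 10 listed lymphocyte and 0 of 6 mesothelial genes passed the rule of FPKM. The biliary marker Krt19 was listed at 0 in dpc8 library 1 and in dpc16 libraries 1 and 2, and was at 8.50 and 8.11 FPKM in dpc8 library 2 and dpc16 library 3.

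Of the 13 tested genes that the study itself names, among them Hmmr, Mki67, Sgk1, H6pd, Pdk4 and Slc45a3, 0 passed the test, with a median of 0.18. Cyp1a2, one of the 13, passed with the replicate block in both forms, and 3 higher and 3 lower were called with array weights. Sgk1, a kinase induced by glucocorticoids, was at 19.4, 62.9 and 11.4 FPKM and then at 129, 119 and 31.0 FPKM (1.65 ± 0.68, adjusted p = 0.277), with dpc16 library 3 inside the dpc8 range, and it was called higher without both libraries that stood apart. Cyp17a1, the 17α-hydroxylase of steroid synthesis, was at 73.9, 63.4 and 128 FPKM and then at 391, 401 and 64.7 FPKM (1.35 ± 0.63, adjusted p = 0.366). The lists of steroid and thyroid hormone handling (17 genes), the circadian clock (17), the immediate early response (18) and oxidative phosphorylation (85) likewise had 0 called genes, with medians of -0.59, -0.31, -0.02 and -0.10. Single libraries decided the immediate early median, which was 0.96 without dpc8 library 2 (Jund called higher) and -0.63 without dpc16 library 3, and the circadian median was -0.10 without dpc8 library 1 and -0.03 without dpc16 library 1.

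The change was then compared with the same change in the neighbouring zones, by a test of the difference itself. Over the 11348 genes, 0 passed for zone 2 against zone 1 and 0 for zone 2 against zone 3, with 339 and 149 genes at an unadjusted p under 0.05, or 2.99% and 1.31%. With stage and replicate number as a random block, 582 and 240 genes were at an unadjusted p under 0.05. On the same genes, dpc16 against dpc8 gave 161 higher and 84 lower genes in zone 1 (2.16% called) and 69 higher and 106 lower in zone 3 (1.54% called). Of the 95 genes that rose in zone 2, 94 also had a positive fold change in zone 1 and 95 in zone 3, and 63 and 50 were called there, or 66.3% and 52.6% of the zone 2 genes and 39.1% and 72.5% of the genes called higher in the other zone. Of the 107 that fell, 104 and 107 had a negative fold change in zones 1 and 3, and 28 and 60 were called, or 26.2% and 56.1% of the zone 2 genes and 33.3% and 56.6% of those of the other zone. The median fold changes of the genes that rose were 1.71, 1.54 and 1.48 in zones 2, 1 and 3, and those of the genes that fell -1.77, -1.05 and -1.43. The genes were chosen by their zone 2 values, so the order of these medians is no comparison of the zones. In all, 24 of the 95 and 37 of the 107 were called in neither other zone. These include Manf, with differences of zone 2 to zones 1 and 3 of 0.15 and 0.08 log2 units, and Psmb9, with -1.70 and -0.63, none of which passed the test (limma adjusted p = 0.970 and 0.99995 for Manf, 0.930 and 0.99995 for Psmb9).

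**Figure D5:**
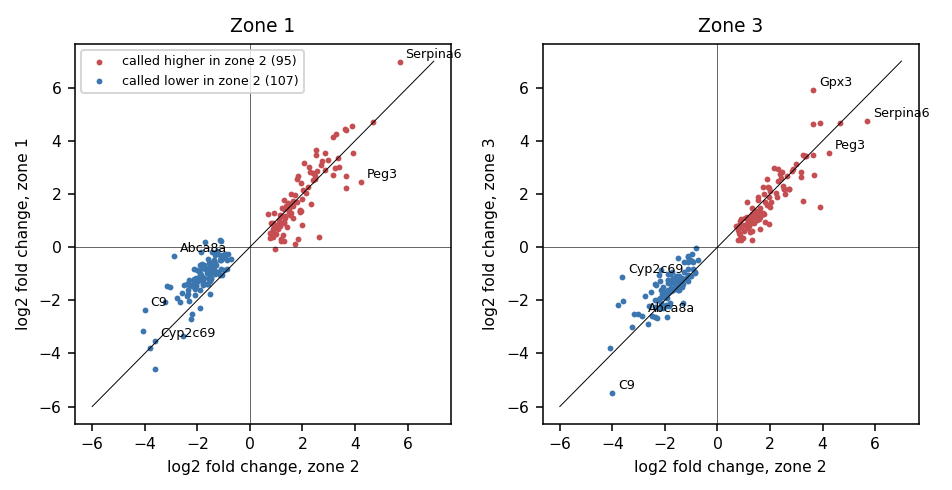
Log2 fold change (dpc16 minus dpc8) of the 95 genes called higher (red) and the 107 called lower (blue) in zone 2, with zone 2 on the horizontal axis and zone 1 (left) or zone 3 (right) on the vertical axis; the line marks equal change. All but 4 points lie in the quadrants of equal sign in zone 1 and all in zone 3, and Abca8a in zone 1 and Cyp2c69 in zone 3 lie far from the line.

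The largest single differences between zones did not pass the adjustment. Cyp2c69 had log2 fold changes of -3.62, -3.55 and -1.14 in zones 2, 1 and 3 (difference of zone 2 minus zone 3 -2.48 ± 0.46, limma adjusted p = 0.251). It passed with stage and replicate number as a random block, and also with array weights, quantile normalization or a connective tissue covariate, among other settings listed below. Abca8a, an ABC transporter, fell from 40.5, 44.4 and 46.4 to 7.14, 5.19 and 3.45 FPKM in zone 2 (-2.88 ± 0.41, adjusted p = 0.000307) and had a log2 fold change of -0.32 in zone 1 (difference -2.56 ± 0.58, limma adjusted p = 0.930). For Psmb8 the fold change was -1.45 in zone 2, -0.17 in zone 1 and -1.29 in zone 3 (difference to zone 1 -1.29 ± 0.46, limma adjusted p = 0.930). Serpina6 rose in all 3 zones, by 6.98 in zone 1, 5.70 in zone 2 and 4.73 in zone 3, in the order from portal to central vein, and neither neighbouring difference passed the test (adjusted p = 0.930 and 0.99995). Cell division genes gave the values with opposite signs: Mki67 had a log2 fold change of -3.20 in zone 1 (adjusted p = 0.00697), -1.25 in zone 2 and 0.59 in zone 3, and the differences of zone 2 to zones 1 and 3 had unadjusted p-values of 0.0364 and 0.0467, which did not hold after adjustment (0.930 and 0.99995).

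Zone 2 of NP mice gives a point of reference for both stages. Ghr, Prlr and Cp were at 213 ± 13.5, 317 ± 51.9 and 551 ± 174 FPKM in NP mice (SD, n = 3), near their dpc8 levels of 164 ± 42.0, 447 ± 152 and 544 ± 135 FPKM, and at 1602 ± 805, 1740 ± 930 and 3035 ± 1625 FPKM at dpc16. Abcc3, Lipc and Cyp2c37 were at 91.5, 156 and 405 FPKM on average in NP mice and so also closer to dpc8 than to dpc16. The difference between dpc8 and NP did not pass the test for any of these 6 genes. Apoa1 was another case: its mean was 4751 ± 381 FPKM in NP mice, 2175 ± 807 at dpc8 and 10589 ± 6482 at dpc16 (SD, n = 3 each), with adjusted p-values of 0.966 for dpc8 and 0.401 for dpc16 against NP. Creld2 was likewise at 40.2 ± 27.9 FPKM in NP mice, between 13.8 ± 3.75 at dpc8 and 103 ± 65.6 at dpc16, and neither stage differed from NP beyond the test (adjusted p = 0.966 and 0.278).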

How the data were processed

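RNA was taken from areas cut by laser from frozen liver sections of NP, dpc8 and dpc16 mice, and ribosomal RNA was removed before library preparation. The authors trimmed reads with cutadapt, aligned them to mm10 with HISAT2 2.1.0 and made the deposited FPKM values with Cuffdiff of Cufflinks 2.2.1 for GENCODE protein-coding genes. Counts were not used here, and depth was estimated from the steps between low FPKM values. FPKM are relative to the rest of the library, so abundant genes such as Alb lower the values of all others.

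Values were analysed as log2(FPKM + 1), which understates changes of low genes. limma 3.58.1 (R 4.3.3) was fitted with 9 group means over all 27 libraries, with a mean-variance trend and robust variances. The contrasts were dpc16 minus dpc8 in zone 2 and its difference from zones 1 and 3, and the tests were two-sided. A gene was called at a Benjamini-Hochberg adjusted p under 0.05 over the 11348 genes. The 3 zones of a stage may share mice. Correlations of the deviations from group means between libraries of the same number at dpc8 and dpc16 were 0.19, -0.616 and -0.641. The libraries that stood apart carry different numbers at dpc8 and dpc16, so these values cannot decide whether the numbers pair the stages. Between zones, the same correlations were 0.27 to 0.862 for the 9 pairs at dpc16 and -0.328 to 0.717 for the 9 at dpc8. The tests of a difference between zones treat libraries as independent, and the fit with stage and number as a random block allows for shared numbers. Groups and numbers came from the labels.

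Named genes were the 12 largest changes per direction among called genes without overlap, called members of the lists, the genes the study names, the largest called differences between zones, and the highest members of each process list. Of the 12 largest rises, 1 gene is not reported here. Lifr, Apoc2, Gpx1, Psmb8, Psmb9, Psmb10 and the genes under the other observations were added after their values were seen. The genes, lists and comparison were chosen with earlier results of these data known. Ribosomal proteins were taken by symbol, without kinases and binding proteins that share the prefix. On simulated data for this comparison with 11348 genes, 84 of 100 genes changed by 2 log2 units, 22 of 100 changed by 1 unit and 3 of 11148 unchanged genes were called. The simulation drew independent noise for each gene and library and changed only genes with a mean log2(FPKM + 1) over 2. It held no libraries that stood apart, so these rates cannot be carried over to the real data. Positions are from GENCODE vM21 (mm10), in which 21806 gene identifiers of the 21823 were found. Reads of close copies, such as the Cyp2c, Sult3a, Klk1b and Ugt genes, may be split between them.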

Additional observations from a re-analysis of the deposited data

How the results depend on the processing

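In all, 18 alternatives were run, 6 of which left out 1 library, and 0 of the called named genes changed direction in any of them. Of 54 called named genes, 27 kept their call in all 6 fits without 1 library. These fits called 59 to 257 genes, 31 to 177 higher and 28 to 133 lower. Of these, 83 were called without dpc8 library 1 (43 higher, 40 lower), 59 without dpc8 library 3 (31, 28), 139 without dpc16 library 1 (44, 95), 84 without dpc16 library 2 (33, 51) and 257 without dpc16 library 3 (177, 80). The fit without dpc8 library 2 called 212 (79, 133). The number called was 922 (497 higher, 425 lower) with array weights, 730 (285, 445) with a connective tissue covariate, 513 (266, 247) without the libraries of the series with Y-linked FPKM, and 0 (0, 0) with only the 6 libraries compared. The cause was not tested. A pseudocount of 0.1, quantile normalization, median scaling, a series-wide filter and no filter gave 204, 221, 142, 195 and 176 called genes. Median scaling and no filter each lost the calls of Scd1, Apoa1, Gstt1, Creld2, Manf and Slc1a2. Median scaling also lost those of Dnajb11, Ugt1a6b and Ctsc. Without both libraries that stood apart, an alternative chosen after seeing the data, 62.3% of 204 calls were higher, against 47% of 202. The covariate gave 39% higher.

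With the replicate number as a block 251 genes were called, of which 196 were among the 202, and with stage and number as a random block 217. The calls that these blocks added among the list genes named in the report are given there, and of the highest list members Gsta3 was added with the number as a term (adjusted p = 0.0171). No called gene of the lists was lost under either block. The labels do not say whether a number marks a shared mouse or batch.

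The difference from zone 1 had 0 called genes in each alternative except 1 (2210407C18Rik) without a filter, and 0 to 0 without 1 library. The difference from zone 3 had 1 called gene with quantile normalization, array weights, the random replicate block, the covariate, without Y-linked libraries, without dpc8 library 2 and without both libraries, which was Cyp2c69 each time. It had 1 (Pnliprp1) with the series-wide filter, 2 (Slc22a2 and Pnliprp1) without a filter, and 0 to 1 without 1 library.

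With 3 libraries a stage, a change of 1 log2 unit was mostly missed on simulated data, in which no library stood apart. Depth was 11.5 to 33.5 M reads. The deepest library of each stage was the one that stood apart, dpc8 library 2 at 26.5 M and dpc16 library 3 at 33.5 M reads.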

Other observations

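The genes here belong to none of the lists and were chosen after their values were seen. Carriers of the cell membrane moved in both directions. Slc16a6, of the monocarboxylate carriers, rose from 3.97, 2.39 and 3.47 FPKM at dpc8 to 64.4, 63.1 and 14.1 FPKM at dpc16 (log2 fold change 3.24 ± 0.45, limma adjusted p = 0.000213). Slc6a9, the glycine carrier GlyT1, rose by 2.21 (adjusted p = 0.0284). Slc6a9 was not called without dpc8 library 2 and dpc16 library 3. Slc38a4, an amino acid carrier of hepatocytes, fell from 488, 272 and 415 to 140, 143 and 60.2 FPKM (-1.83 ± 0.38, adjusted p = 0.0123). Slc16a10, a carrier of aromatic amino acids, fell by 1.60 (adjusted p = 0.0119), and Slc22a26, an organic anion carrier, fell by 2.32 (adjusted p = 0.000166). None of the 5 genes overlapped between the stages.

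Further genes of the secretory pathway were called higher. Rrbp1, a ribosome-binding protein of the rough endoplasmic reticulum, rose from 79.4, 103 and 118 to 360, 462 and 185 FPKM (1.66 ± 0.32, adjusted p = 0.00627), and Sec13, a coat protein of the vesicles that leave it, from 33.6, 45.1 and 34.3 to 78.5, 90.9 and 79.5 FPKM (1.13 ± 0.23, adjusted p = 0.00904). Furin, the proprotein convertase of the Golgi, rose by 1.14 (adjusted p = 0.0484) and was not called without both libraries that stood apart.

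Among metabolic genes, Khk, which phosphorylates fructose, fell from 362, 190 and 427 to 105, 83.6 and 63.5 FPKM (-1.89 ± 0.36, adjusted p = 0.00629), and Aox3, an aldehyde oxidase, fell by 2.54 (adjusted p = 0.00569). Cd36, a fatty acid carrier, was at 12.3, 15.7 and 16.5 FPKM and then at 211, 115 and 26.2 FPKM (2.47 ± 0.64, adjusted p = 0.0499), so that dpc16 library 3 lay near the dpc8 range.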
